A study of Mus musculus with 11 samples.

Results

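The retinoic acid receptors (RARs) and retinoid X receptors (RXRs) were taken as the 9 probe sets, of 45101 on the array, whose single annotated gene symbol is Rara, Rarb, Rarg, Rxra, Rxrb or Rxrg. All 6 genes are measured, among 18194 genes with a probe set of their own. Rarg has 2 of the probe sets, Rxra has 3 and the other genes have 1 each. The arrays hold RNA from 3 neighbouring regions of the testis of W/Wv mice at 7 weeks of age, which carry the W and Wv alleles of Kit and are depleted of germ cells. The regions are the Sertoli valve (SV, 4 arrays), the short piece of tubule that drains into the rete, the rete testis (RT, 3 arrays), the network that collects the tubules, and the convoluted seminiferous tubules (ST, 4 arrays). ST served as the control region. Each array holds a pool of 20 testes, so the spread between arrays is a spread between pools and not between animals. The pieces were cut by hand, and the methods of the study state that SV pieces probably carry some RT cells. All regions come from mutant testes, and wild-type arrays were not analysed here.

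RARs are nuclear receptors that are activated by retinoic acid, the active derivative of vitamin A. They bind DNA as heterodimers with RXRs, at direct repeats of a short half-site, and exchange corepressors for coactivators when the ligand is bound. RXRs also pair with other nuclear receptors, such as the thyroid hormone, vitamin D and peroxisome proliferator-activated receptors. In the testis, retinoic acid drives the differentiation of spermatogonia. RARA acts largely in Sertoli cells and RARG in spermatogonia, and male mice without Rara or without Rxrb are sterile.

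The promoter of Rarb, the member with the widest difference between regions, is shown because Rarb is itself a textbook target of RARs, and that of Cyp26a1 because this retinoic acid-degrading enzyme is the pathway gene with the widest difference between regions. Each window holds 250 bases before and 50 bases after the start of a RefSeq transcript (GRCm38.p6), is written 5′ to 3′ on the strand of the gene, and has in capitals both half-sites of a DR5, a direct repeat with 5 bases between its half-sites. The Rarb window is chr14:16575427-16575726 on the minus strand, and the Cyp26a1 window is chr19:37697558-37697857 on the plus strand.
Rarb: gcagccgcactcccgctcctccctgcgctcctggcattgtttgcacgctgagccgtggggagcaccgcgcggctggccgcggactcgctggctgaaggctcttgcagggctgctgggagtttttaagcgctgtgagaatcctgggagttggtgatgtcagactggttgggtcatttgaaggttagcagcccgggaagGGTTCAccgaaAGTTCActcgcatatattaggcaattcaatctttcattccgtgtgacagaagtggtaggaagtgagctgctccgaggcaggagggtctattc
Cyp26a1: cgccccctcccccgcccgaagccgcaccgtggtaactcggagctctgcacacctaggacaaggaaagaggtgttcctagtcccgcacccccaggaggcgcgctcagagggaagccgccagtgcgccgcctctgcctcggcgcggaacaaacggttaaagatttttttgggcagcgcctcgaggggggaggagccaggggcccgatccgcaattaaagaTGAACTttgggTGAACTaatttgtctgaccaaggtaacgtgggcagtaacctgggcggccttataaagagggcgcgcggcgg

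The half-sites searched were AGGTCA (the consensus), AGTTCA (held by both windows), GGTTCA (held by that of Rarb) and GGGTCA (a further variant, also in the Rarb window but outside its DR5). Both strands were searched, and a DR5 also counts as 2 half-sites. In Rarb the DR5 lies on the strand of the gene (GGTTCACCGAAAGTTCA, chr14:16575513-16575529) and begins 53 bases before the start. In Cyp26a1 it lies on the opposite strand (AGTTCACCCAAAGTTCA, chr19:37697776-37697792). Of 32851 windows of this length, 43.7% hold at least 1 half-site and 0.0974% hold a DR5. Among the 13 windows of the 6 receptor genes, the Rarb window is the only one with a DR5. None of the 13 holds a DR1 or a DR2, the repeats with 1 and 2 bases between half-sites, which occur in 0.222% and 0.268% of all windows. These matches are descriptions of the letters in these windows, and binding was not measured. The half-sites searched include those of the 2 printed windows, so finding a DR5 in them is no test.

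The regions separated by their markers in these arrays. The summed signal of 8 rete testis markers was 3142–7290 in SV, 19029–29689 in RT and 604–923 in ST, and that of 14 Sertoli cell markers was 112172–149635 in SV, 65520–87608 in RT and 137601–177680 in ST. RT thus held less Sertoli signal than ST (9 of 14 markers lower, none higher), and SV held rete signal (7 of 8 markers higher than in ST). Of 6 efferent duct markers, 3 were higher in SV and 6 in RT than in ST (summed signal 1885–4864 in SV, 6123–15292 in RT and 1671–2485 in ST). Of 8 endothelial markers 1 was higher in SV and 3 in RT (1238–2792 in SV, 4204–4313 in RT and 722–1148 in ST), and of 5 peritubular myoid markers 2 were lower in RT than in ST (9065–10736 in SV, 3589–7171 in RT and 9158–15331 in ST). Of 13 spermatogonia markers, 1 was higher in SV than in ST, 2 were higher and 8 lower in RT than in ST (summed signal 8752–10602 in SV, 8385–9281 in RT and 9174–12987 in ST), among them Dazl with 146 ± 94.8 in RT and 2196 ± 591 in ST (mean ± SD, n = 3 and 4). None of 5 Leydig cell markers was higher or lower in SV or RT than in ST. Their summed signal was 28088–68173 in SV, 33576–43253 in RT and 21870–47708 in ST. Each was lowest in replicate 3 within SV and within ST, as was Rarb, while in RT the lowest replicate varied among them. Within SV, replicate 3 was also lowest for every rete testis marker but Krt7 (for example Krt8 411, Pax8 303 and Cdh1 716). It was the highest SV array for every Sertoli cell marker but Cldn11 (for example Rhox5 6120 and Fshr 1048). Of 6 macrophage markers 1 was higher in RT than in ST (14651–19795 in SV, 14844–20663 in RT and 12411–15352 in ST). Beside these marker counts, 2.39% of all genes were called higher and 0.0769% lower in SV against ST. In RT against ST the shares were 12.5% and 7.34%. The arrays also fell into 2 sets, since 18S rRNA 3′ signal was 20675–32135 in replicates 1 and 2 and 6064–12751 in replicates 3 and 4. The part of these differences in the results on receptors was not tested. In such bulk samples, fewer cells of a type and less RNA per cell cannot be told apart.

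None of the 9 receptor probe sets differed between regions by over 2-fold at an adjusted p under 0.05. Values are MAS5.0 signals, a linear intensity that the authors scaled to the same trimmed mean in every array, and the test was limma on log2 signal over all 11 arrays, with p-values adjusted by Benjamini-Hochberg over the whole array. The count was 0 of 9 in SV against ST, where 1.56% of all probe sets were called. It was 0 of 9 in RT against ST, where 15.7% were called, and 0 of 9 in SV against RT, where 7.94% were called. At an unadjusted p under 0.05 in limma the numbers were 1, 3 and 2 of 9, beside 13.2%, 34.9% and 26.3% of all probe sets. Over the 9 members the median log2 fold change was 0.11 in SV against ST, 0.36 in RT against ST and −0.20 in SV against RT, beside 0.0012, 0.13 and −0.11 over all probe sets. The largest estimates belonged to Rarb, which was highest in SV, and the only adjusted p under 0.05 belonged to Rara, which was lower in RT than in ST. SV and RT share the ST arrays in these comparisons.

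**Figure D1:**
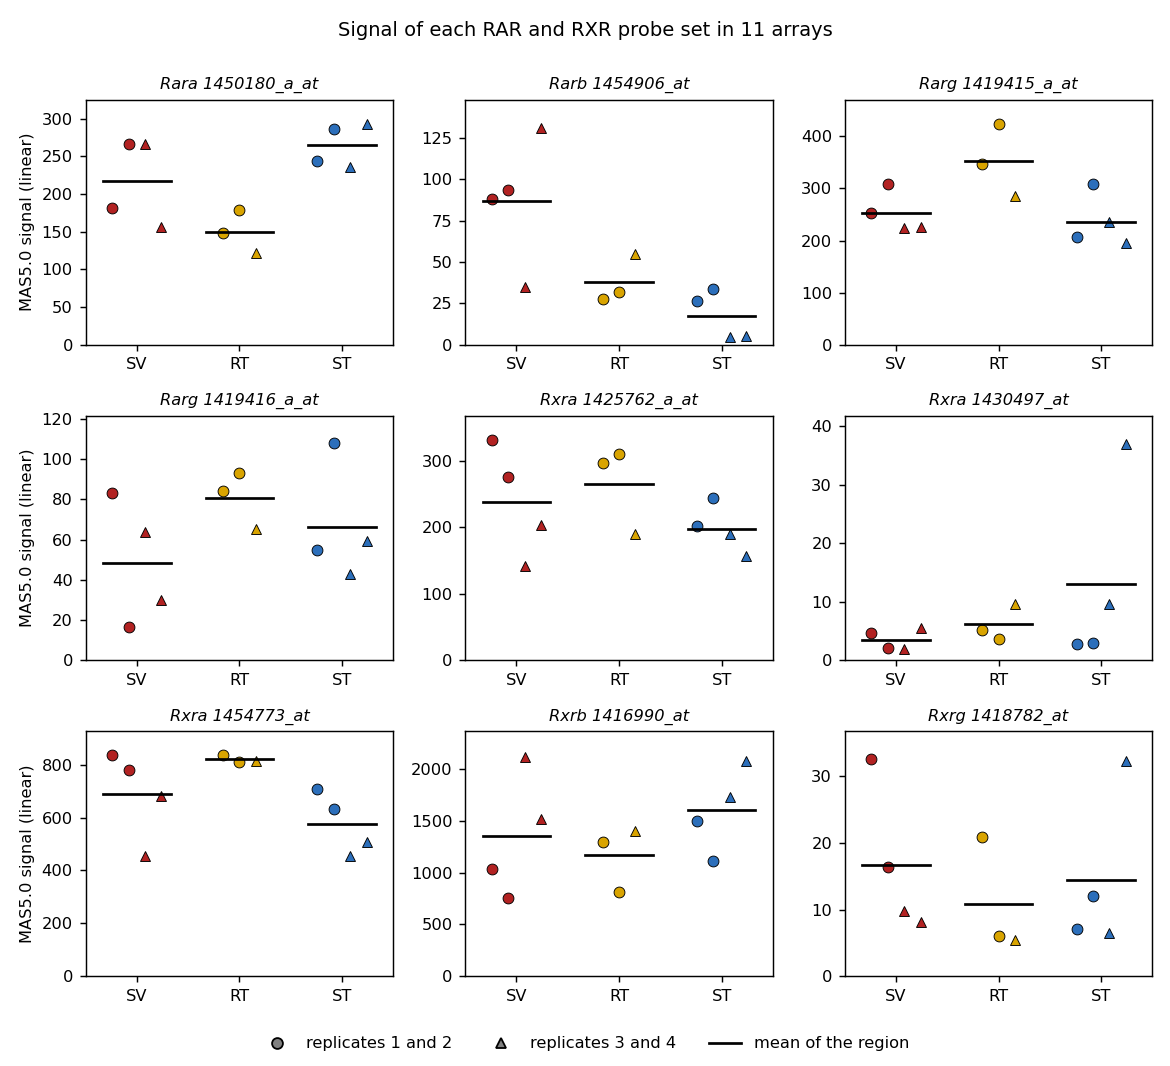
MAS5.0 signal (linear axis from 0) of each receptor probe set in the 4 SV, 3 RT and 4 ST arrays, with circles for replicates 1 and 2, triangles for replicates 3 and 4 and a bar for the mean of each region. All 4 SV arrays lie above all 4 ST arrays for Rarb, all 3 RT arrays lie below all ST arrays for Rara, and the other probe sets overlap between regions apart from Rxra 1454773_at in RT and ST.

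**Figure D2:**
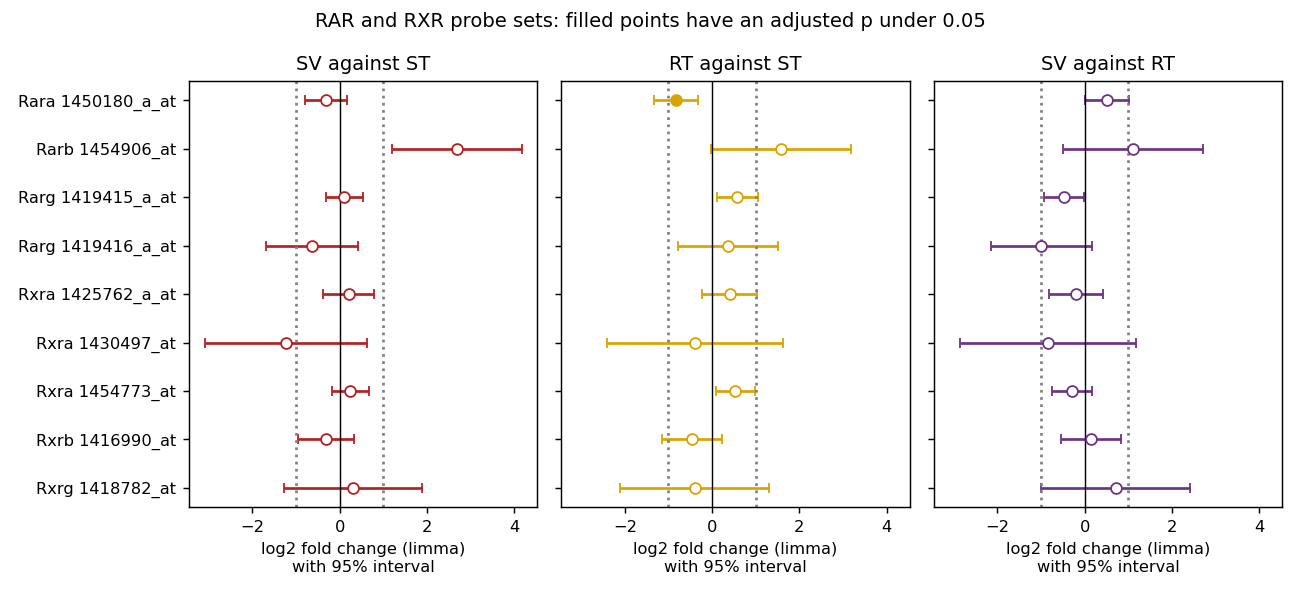
Log2 fold change of each receptor probe set in 3 comparisons (limma, 11 arrays), with 95% intervals and dotted lines at 2-fold. The interval of Rarb in SV against ST lies wholly above 2-fold (1.19 to 4.17) although its point is open (adjusted p of 0.05 or more), and the only filled point is Rara in RT against ST.

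Rarb (RAR beta, chromosome 14) encodes the receptor whose own gene retinoic acid induces in many cell types. Its signal was 87.8, 93.2, 34.6 and 131 in SV, against 26.1, 33.7, 4.76 and 5.21 in ST. In RT it was 27.4, 31.8 and 54.6. Every SV array was above every ST array, though the lowest SV array (replicate 3, 34.6) exceeded the highest ST array (33.7) by a small margin, and RT overlapped both regions. Of all probe sets, 4.64% had all SV arrays above all ST arrays. The log2 fold change ± standard error was 2.68 ± 0.69 in SV against ST (95% interval 1.19 to 4.17, limma adjusted p = 0.0656), 1.58 ± 0.74 in RT against ST (adjusted p = 0.151) and 1.11 ± 0.74 in SV against RT (adjusted p = 0.393). The probe set was dim, with 5 of 11 arrays under a signal of 32. It also stands below the median of all probe sets, so a filter on dim probe sets removed it.

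The call of Rarb in SV against ST depended on the processing. With the replicate number as a block it was called (2.68 ± 0.67, limma adjusted p = 0.0355), and likewise with replicates 1 and 2 against 3 and 4 as a block (2.68 ± 0.63, adjusted p = 0.0261). Within replicates 1 and 2 alone the log2 fold change was 1.61 (adjusted p = 0.118), and within replicates 3 and 4 alone it was 3.76 (adjusted p = 0.503). With 32 added to each signal the change was 1.24 (adjusted p = 0.0474), and with a floor of 32 it was 1.27 (adjusted p = 0.167). Without SV replicate 3 it was 3.07 (adjusted p = 0.0245), and without ST replicate 2 it was 3.17 (adjusted p = 0.0421), while leaving out any other array kept the adjusted p between 0.05 and 0.199. Rarb was called in 4 of 13 other settings, the methods' own test without adjustment among them, and in 2 of 11 fits that left out 1 array, with a positive log2 fold change in each of them. In RT against ST the estimate differed between the sets of replicates, with −0.0062 within replicates 1 and 2 and 3.45 within replicates 3 and 4, where RT is 1 array.

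**Figure D3:**
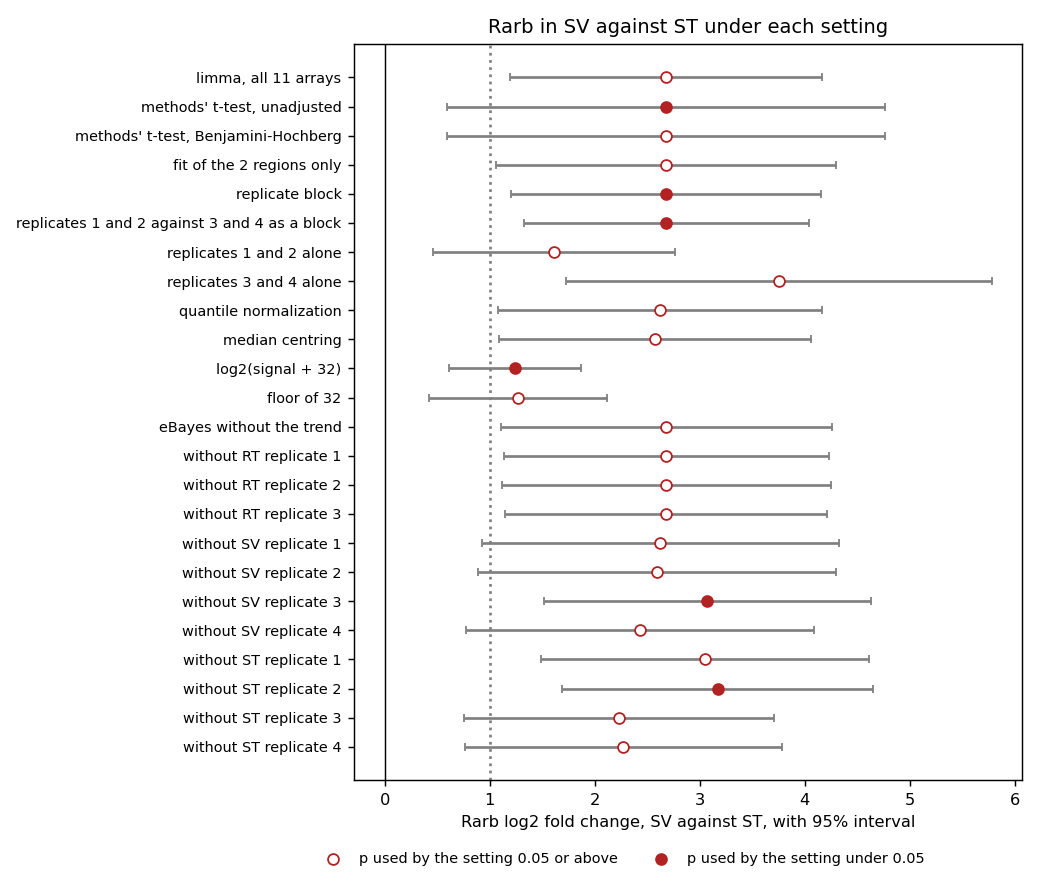
Log2 fold change of Rarb in SV against ST, with 95% intervals, under the limma fit of all 11 arrays (top) and under each other setting or left-out array. The estimates lie between 1.24 and 3.76 and every interval is above 0, and filled points have a p under 0.05 as that setting adjusts it.

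Rara (RAR alpha, chromosome 11) encodes the receptor that Sertoli cells need for normal spermatogenesis. Its signal was 181, 266, 267 and 156 in SV. It was 149, 179 and 122 in RT, against 243, 286, 236 and 293 in ST. All RT arrays were below all ST arrays, as for 13.6% of all probe sets, and SV overlapped both regions. RT was lower than ST by a log2 fold change of −0.83 ± 0.24 (95% interval −1.34 to −0.32, limma adjusted p = 0.0193), that is 1.78-fold lower in RT. At this threshold without a fold limit 1 of 9 receptor probe sets passed, beside 25.3% of all probe sets, of which 10.8% of all were lower. SV against ST gave −0.31 ± 0.22 (adjusted p = 0.625), and SV against RT gave 0.52 ± 0.24 (adjusted p = 0.185).

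The lower Rara in RT kept its sign under every setting tried, and its size moved with the scaling. Quantile normalization gave −1.19 (limma adjusted p = 0.00429) and median centring −1.25 (adjusted p = 0.00328), both over 2-fold. Under these scalings the median over all probe sets in RT against ST was −0.07 and −0.29 in place of 0.13, and calls higher in RT made up 49.62% and 34.86% of all calls in place of 65.07%. With the replicate block Rara was −0.88 (adjusted p = 0.00786). Within replicates 1 and 2 alone it was −0.69 (adjusted p = 0.0779), and within replicates 3 and 4 alone −1.11 (adjusted p = 0.191), where RT is 1 array and is assumed to vary like the other regions. The adjusted p was over 0.05 without RT replicate 1 (0.0592), RT replicate 3 (0.0784) or ST replicate 4 (0.0514). In RT against ST, 9 of 14 Sertoli cell, 8 of 13 spermatogonia and 2 of 5 peritubular myoid markers were also called lower. Of the spermatogonia markers 2 were called higher. The part of these markers in the result was not tested.

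Rarg (RAR gamma, chromosome 15) encodes the receptor that acts in spermatogonia. Its brighter probe set, 1419415_a_at, had signals of 253, 309, 223 and 225 in SV. It had 348, 424 and 286 in RT, against 206, 308, 235 and 196 in ST. RT had the highest mean (353 ± 69.3), and SV (253 ± 40.0) and ST (236 ± 50.8) overlapped almost wholly. Between RT and ST its log2 fold change was 0.58 ± 0.21 (95% interval 0.12 to 1.04, limma adjusted p = 0.0635). The replicate block brought it past the threshold at under 2-fold (0.51, adjusted p = 0.0177), whereas the scalings made it smaller, to 0.30 (adjusted p = 0.362) by quantile normalization and 0.16 (adjusted p = 0.691) by median centring. In SV against ST it was 0.11 ± 0.20 (95% interval −0.32 to 0.53), so that a change of 2-fold lies outside the interval of this probe set. The other probe set, 1419416_a_at, had 83.1, 16.5, 63.7 and 30.1 in SV, 84.1, 92.9 and 65.5 in RT and 54.7, 108, 43.1 and 59.5 in ST. Its changes had adjusted p-values of 0.27 to 0.696 in the 3 comparisons, and in RT against ST it was 0.36 in the fit of all arrays, −0.052 after quantile normalization and −0.065 after median centring. In SV against ST it was −0.63 ± 0.49 (95% interval −1.70 to 0.43), an interval that takes in a 2-fold decrease. Both probe sets had their highest mean in RT, and SV against RT gave −0.47 ± 0.21 at 1419415_a_at (adjusted p = 0.175) and −0.99 ± 0.53 at 1419416_a_at (adjusted p = 0.27).

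Rxra (RXR alpha, chromosome 2) encodes the most widely expressed RXR. Its brightest probe set, 1454773_at, had 836, 781, 455 and 682 in SV. It had 838, 809 and 813 in RT, against 706, 633, 454 and 507 in ST. All RT arrays were above all ST arrays, as for 20.1% of all probe sets, and the RT arrays differed little from each other (SD 15.8). Its change was 0.53 ± 0.21 in log2 units between RT and ST (95% interval 0.08 to 0.99, limma adjusted p = 0.0838). It passed the threshold of adjusted p with the replicate block (0.51, adjusted p = 0.0221), stayed under 2-fold, and was 0.11 (adjusted p = 0.793) with median centring. In SV against ST it was 0.24 ± 0.19 (95% interval −0.18 to 0.66, adjusted p = 0.686).

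The probe set 1425762_a_at of Rxra had 331, 275, 141 and 203 in SV, 296, 310.1 and 189.9 in RT and 202, 244, 189 and 157 in ST, with overlap in every comparison. RT against ST gave 0.41 ± 0.29 (limma adjusted p = 0.365), or −0.016 with median centring, and SV against RT gave −0.20 (adjusted p = 0.737), with 0.12 after median centring. The remaining one, 1430497_at, had signals of 1.93 to 5.49 in SV, 3.64 to 9.72 in RT and 2.89 to 37.0 in ST, and was under 32 in 10 of 11 arrays. No order of regions can be read from it, as its change in RT against ST was −0.39 in the fit of all arrays and 0.38 without ST replicate 4.

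Rxrb (RXR beta, chromosome 17) encodes the RXR that Sertoli cells need. Its signal was 1030, 757, 2119 and 1513 in SV. It was 1298, 815 and 1405 in RT, against 1497, 1113, 1730.4 and 2071 in ST. The regions overlapped, with the lowest mean in RT (1173 ± 314) and the highest in ST (1603 ± 403). Its log2 fold change was −0.31 ± 0.29 in SV against ST (95% interval −0.95 to 0.32), −0.45 ± 0.32 in RT against ST (95% interval −1.14 to 0.23) and 0.14 ± 0.32 in SV against RT, with limma adjusted p-values of 0.75, 0.353 and 0.84. With median centring the change in RT against ST was −0.88 (adjusted p = 0.0439).

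Rxrb and Rxra also differed between the 2 sets of replicates. With region in the fit, Rxrb was higher in replicates 3 and 4 (1405 to 2119) than in replicates 1 and 2 (757 to 1497), with a log2 fold change of 0.70 ± 0.16 (limma adjusted p = 0.0101). Rxra went the other way at 1425762_a_at, with 141 to 203 in replicates 3 and 4 and 202 to 331 in replicates 1 and 2 (−0.62 ± 0.15, adjusted p = 0.0141), and at 1454773_at (−0.39 ± 0.12, adjusted p = 0.0492). At this threshold 3 of 9 receptor probe sets passed, beside 15.8% of all probe sets. This comparison was added after seeing the data, and what the sets of replicates differ in is not given in the sources used here.

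Rxrg (RXR gamma, chromosome 1) encodes an RXR known mainly from brain and muscle. Its signal was 32.6, 16.4, 9.84 and 8.18 in SV, 21.0, 5.98 and 5.38 in RT and 7.11, 12.0, 6.54 and 32.4 in ST. It was under 32 in 9 of 11 arrays, and the brightest array of ST was as bright as that of SV. The intervals of its log2 fold change are too wide to show equal levels, from −1.26 to 1.89 in SV against ST and from −2.11 to 1.30 in RT against ST.

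The genes whose log2 signal was most like that of each receptor over the 11 arrays were taken among probe sets above the median, by Pearson r, as a description. For Rarb these were Cxcl13 (r = 0.957), a chemokine gene, Slc25a29 (0.938), a mitochondrial carrier gene, and Pcolce (0.922), an enhancer of procollagen processing. For Rara they were Zfp385a (0.976), Polr3d (0.961) and Rrp15 (0.931). For Rarg they were Gigyf1 (0.972), Tor1b (0.967) and Cela3b (0.963), and for Rxra Cxcl12 (0.985), B3gnt9 (0.980) and Armcx2 (0.975). Rxrb was most like Coro1c (0.956), Usf2 (0.945) and Rasl11b (0.942), and Rxrg most like Washc2 (0.918), Mapkap1 (0.864) and Snx12 (0.805). The arrays share regions and sets of replicates, and such maxima are taken over all genes above the median.

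Among cofactors and partners of the receptors, 1 gene was called, Ncoa2. Of 9 coactivator genes none was called in SV against ST, and the call both in RT (lower than ST) and in SV (higher than RT) was Ncoa2, which encodes a p160 coactivator of nuclear receptors. For Ncoa2 all RT arrays were below all ST arrays, as for 13.6% of all probe sets. Its signal was 7323 to 10152 in SV and 3567 to 4244 in RT, against 10570.3 to 12158 in ST, without overlap between any regions. It changed by −1.56 ± 0.14 in RT against ST (limma adjusted p = 5.07e-06), 1.13 ± 0.14 in SV against RT (adjusted p = 2.96e-04) and −0.43 ± 0.13 in SV against ST (adjusted p = 0.116). Of 7 corepressor genes measured and 12 RXR partner genes measured, none was called in any comparison. Beside these counts, 2.39% of all genes were called higher and 0.0769% lower in SV against ST. The shares were 12.5% and 7.34% in RT against ST, and 4.39% and 6.41% in SV against RT. Under 2-fold, and chosen after their values were seen, the thyroid hormone receptor gene Thra (0.90 ± 0.11, adjusted p = 4.62e-05) and the corepressor gene Nrip1 (0.89 ± 0.14, adjusted p = 4.7e-04) were higher in RT than in ST, and the vitamin D receptor gene Vdr (−0.81 ± 0.16, adjusted p = 0.00192) was lower. The medians in RT against ST were −0.11 for coactivators, 0.21 for corepressors and 0.28 for partners, beside 0.075 over all genes.

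Genes on the list of retinoid supply differed between RT and ST in both directions, with calls over 2-fold in those lower in RT. The list is not limited to genes that raise retinoic acid. Of 14 genes measured, 4 were called lower and none higher in RT than in ST, beside 7.34% and 12.5% of all genes. Under 2-fold, 4 more passed the adjusted p and were higher in RT, namely Aldh1a3 (0.65 ± 0.12, adjusted p = 9.59e-04), a further enzyme that makes retinoic acid, Rdh11 (0.89 ± 0.27, adjusted p = 0.0266), Adh1 (0.84 ± 0.25, adjusted p = 0.0229) and Dhrs3 (0.51 ± 0.15, adjusted p = 0.0201), the last also on the list of inducible genes. Without a fold limit 4 of 14 were thus higher and 4 lower. At that threshold 25.3% of all probe sets passed in either direction, of which 10.8% of all were lower. In SV against RT, 3 of the 14 were called higher and none lower, beside 4.39% and 6.41% of all genes. SV against ST had no call. These 3 are among the 4 lower in RT than in ST, and both comparisons use the same RT arrays. Aldh1a2, which encodes an enzyme that makes retinoic acid from retinal, had 508 to 779 in SV and 192 to 344 in RT, against 485 to 693 in ST, with log2 fold changes of −1.25 ± 0.22 in RT against ST (limma adjusted p = 7.87e-04) and 1.38 ± 0.22 in SV against RT (adjusted p = 0.00116). Rbp4, the plasma carrier of retinol, changed by −1.77 ± 0.21 in RT against ST (adjusted p = 4e-05), and Fabp5, a fatty acid-binding protein that also carries retinoic acid, by −2.27 ± 0.28 (adjusted p = 6.27e-05). Adh7, an alcohol dehydrogenase, changed by −1.64 ± 0.31 (adjusted p = 0.00145). The medians over the list were 0.12 in SV against ST, 0.16 in RT against ST and 0.01 in SV against RT. Over all genes they were 0.018, 0.075 and −0.043.

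The 2 measured enzymes that degrade retinoic acid had their highest signals in different regions. Cyp26a1 had 392, 359, 206 and 317 in SV and 17.3, 16.4 and 97.3 in RT, against 6.56, 8.59, 9.92 and 7.66 in ST. The signals of the regions did not overlap. Of all probe sets, 4.64% had all SV arrays and 20.1% all RT arrays above all ST arrays. The lowest SV array of Cyp26a1 was replicate 3, as for Rarb. All 4 ST arrays and 2 of 3 RT arrays lay under a signal of 32, so the size of its changes against ST is uncertain. Its log2 fold change was 5.26 ± 0.53 in SV against ST (limma adjusted p = 1.46e-04), 3.36 ± 0.58 in SV against RT (adjusted p = 0.00187) and 1.90 ± 0.58 in RT against ST (adjusted p = 0.0266). With every signal raised to a floor of 32, chosen after seeing the data, it was 3.27 in SV against ST (adjusted p = 0.005), 2.74 in SV against RT (adjusted p = 0.00266) and 0.53 in RT against ST (adjusted p = 0.414), where it was no longer called. Cyp26b1 had 1543 to 1958 in SV and 893 to 1175 in RT, against 2162 to 2666 in ST. It changed by −1.22 ± 0.14 in RT against ST (adjusted p = 2.71e-05), by 0.82 ± 0.14 in SV against RT (adjusted p = 0.00164, under 2-fold) and by −0.41 ± 0.13 in SV against ST (adjusted p = 0.136). The study singled out Cyp26a1 on these samples, so its difference here is no independent evidence.

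Genes that retinoic acid induces in other settings were called in both directions. Of 19 genes measured, 2 were higher and none lower in SV than in ST (Cyp26a1 and Meis2), beside 2.39% and 0.0769% of all genes. In RT against ST 4 were higher and 3 lower, beside 12.5% and 7.34%, and SV against RT had 3 in each direction, beside 4.39% and 6.41%. Their median log2 fold changes were 0.39 in SV against ST, 0.53 in RT against ST and −0.19 in SV against RT. Over all genes the medians were 0.018, 0.075 and −0.043. Meis2, a homeobox gene, changed by 1.54 ± 0.25 in SV against ST (limma adjusted p = 0.00561) and by 3.26 ± 0.27 in RT against ST (adjusted p = 3.58e-06), with 123 to 236 in SV and 509 to 707 in RT, against 42.0 to 76.1 in ST. Rarres2, which encodes chemerin, changed by 2.07 ± 0.15 in RT against ST (adjusted p = 1.07e-06). Stra8, which germ cells need to enter meiosis, had 104 to 245 in SV and 20.1 to 55.8 in RT, against 223 to 409 in ST, and changed by −3.13 ± 0.39 in RT against ST (adjusted p = 6.47e-05). Rarb, Cyp26a1 and Meis2 were all higher in SV than in ST by their estimates, but Rarb did not pass the test. Stra8 (−1.25 ± 0.36, limma adjusted p = 0.107) and Cyp26b1 (−0.41 ± 0.13, adjusted p = 0.136) were lower in SV by theirs, and did not pass either. In RT against ST, 8 of 13 spermatogonia markers were called lower, as was Stra8, and 2 were called higher (Gfra1 and Ret). In SV against ST only Gfra1 was called, and it was higher. Rete testis markers moved with Meis2 and Rarres2 in these regions. The part of these markers in the results was not tested.

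**Figure D4:**
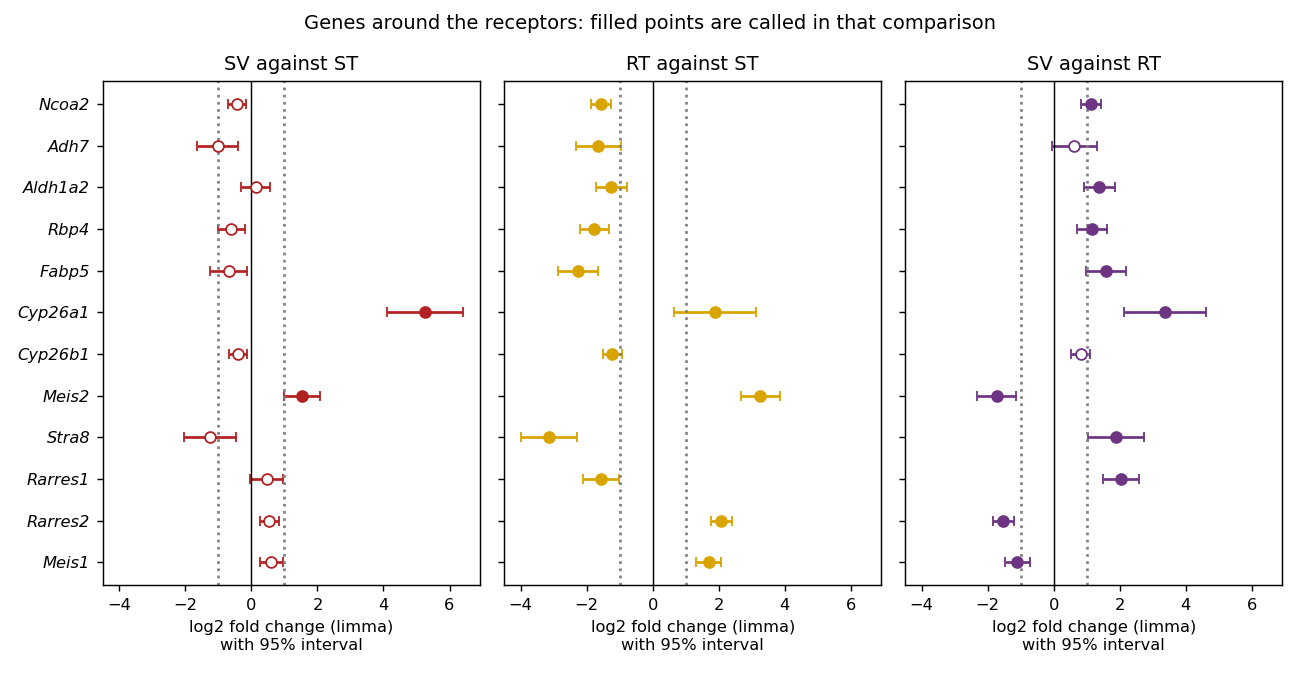
Log2 fold changes (limma, with 95% intervals and dotted lines at 2-fold) of the 12 genes from the lists of cofactors, retinoid supply, degradation and retinoic acid-inducible genes that were called in at least 1 comparison. Cyp26a1 is the one gene filled to the right in SV against ST, SV against RT and RT against ST (the last not with a floor of 32), and Ncoa2, Aldh1a2, Rbp4, Fabp5, Stra8 and Rarres1 are filled to the left in RT against ST and to the right in SV against RT.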

How the data were processed

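RNA of 3 testis regions of W/Wv mice was labelled (GeneChip 3′ IVT Plus) and measured on 11 Affymetrix 430 2.0 mouse arrays. The authors computed MAS5.0 signals, the deposited intensity values on a linear scale, and scaled each array to a 2% trimmed mean of 500. Medians were 65.8–110.4 per array. Detection calls were not used here, and probes were named by the array annotation (34958 of 45101 probe sets with 1 symbol, 932 with several, 9211 with none).

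Log2 signals were fitted by limma 3.58.1 (R 4.3.3; lmFit, eBayes with an intensity trend) over all 11 arrays. Calls needed over 2-fold with an adjusted p (Benjamini-Hochberg, whole array) under 0.05. In lists, each gene stands by its brightest probe set. Every receptor probe set is named, with up to 4 called genes per list, every degradation gene and the 3 most alike genes. Members and lists were chosen with earlier results of these data known. The script was tested on simulated data with known changes. Promoters come from RefSeq (GRCm38.p6), and all 6 genes matched. Plots used matplotlib 3.10.9 under Python 3.11.15.

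Labels number the replicates in every region but do not say what a number shares. After region means were removed, arrays of different regions with the same number correlated at 0.277–0.671 over probe sets above the median and at 0.0692–0.190 over all probe sets. Arrays with different numbers within replicates 1 and 2 or within 3 and 4 gave 0.168–0.477 and 0.0698–0.178, which overlap these ranges, so numbers and sets of replicates are not separated by this check. Block values stand beside the results they change. Alternatives are given in the closing section. Cell composition was read from marker lists only, and other experiments of the study were not analysed here.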

Additional observations from a re-analysis of the deposited data

How the results depend on the processing

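Alternatives covered the test, the arrays in the fit, blocks, scaling, low signals, the fold threshold and each array left out. The count of receptor probe sets higher in SV than in ST was 0, and 1 (Rarb) with the methods' t-test unadjusted, the replicate block, the block of sets and log2(signal + 32), and 0 to 1 when arrays were left out. After Benjamini-Hochberg adjustment the methods' t-test, run here on log2 signal, gave 0.308 for Rarb. The count lower in RT than in ST was 0, and 1 (Rara) with quantile normalization, median centring or no fold threshold. The pairing by replicate block changed no other count of receptor calls. The cause was not tested.

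The sign turned in 21 cases, none past the threshold in either fit. In SV against ST, Rxra 1430497_at was 0.085 within replicates 1 and 2, Rxra 1425762_a_at −0.022 and Rxrg −0.70 within replicates 3 and 4, Rarg 1419415_a_at −0.00086 with median centring, and Rxrg −0.079 without SV replicate 1 (−0.079 to 0.81 with arrays left out). In RT against ST, Rxra 1430497_at was 0.13 with the replicate block, 0.57 within replicates 1 and 2 and 0.38 without ST replicate 4 (−0.84 to 0.38 with arrays left out). Within replicates 1 and 2 Rarb was −0.0062 and Rxrg 0.28, and Rxrg was 0.091 without ST replicate 4 (−1.03 to 0.091). Rarg 1419416_a_at was −0.052 after quantile normalization and −0.065 after median centring, where Rxra 1425762_a_at was −0.016. In SV against RT, Rxrb was −0.22 within replicates 1 and 2, −0.10 without RT replicate 2 and −0.11 without SV replicate 3 (−0.11 to 0.38). Rxra 1425762_a_at was 0.017 after quantile normalization, 0.12 after median centring and 0.029 without SV replicate 3 (−0.42 to 0.029), and Rxra 1454773_at 0.026 after median centring.

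Over all probe sets, 675 were higher and 30 lower in SV than in ST (0–1302 and 0–432 over settings), 4607 and 2473 in RT than in ST (1016–6540 and 869–5254), and 1332 and 2251 in SV than in RT (0–2905 and 0–3593). The lows belong to replicates 3 and 4 alone, where RT has 1 array, except the 0 lower in SV, which also came from the adjusted t-test. The replicate block gave 3593 lower in SV than in RT. Calls that were higher made up 37.18% in SV against RT, 52.58% with quantile normalization and 66.77% with median centring. In SV against ST they made up 95.74%, 95.06% and 91.02%. Dim signals limit Rarb, Rxrg, Rxra 1430497_at and, in ST, Cyp26a1 and Cfap45.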

Other observations

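Among the genes of the retinoid supply list, Rdh10, which encodes the retinol dehydrogenase of the first step of retinoic acid synthesis, had 1802, 1638, 1456 and 1744 in SV and 691, 982 and 1058 in RT, against 1079, 975, 932 and 759 in ST. These values are from the brighter of 2 probe sets of the gene. Of all probe sets, 4.64% had all SV arrays above all ST arrays. Here all SV arrays were above all RT and ST arrays. The log2 fold change was 0.83 ± 0.16 in SV against ST (limma adjusted p = 0.0126) and 0.89 ± 0.17 in SV against RT (adjusted p = 0.00349), under 2-fold in both, and −0.05 ± 0.17 in RT against ST (adjusted p = 0.87). Rdh10 was chosen after its values were seen.

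A DR5 was found in the promoter windows of 31 genes (0.115% of 27025), of which 11 are measured. In SV against ST 1 of the 11 was called higher, Cyp26a1, beside 2.39% of all genes. In RT against ST 3 were called higher, Cyp26a1, Tnfsf13b and Cfap45, beside 12.5%, and none was lower. Tnfsf13b, a cytokine gene of B cells, changed by 1.41 ± 0.35 in SV against ST (limma adjusted p = 0.0584) and by 1.60 ± 0.38 in RT against ST (adjusted p = 0.00687). Cfap45, a gene of motile cilia, changed by 1.55 ± 0.55 in SV against ST (adjusted p = 0.208) and by 3.92 ± 0.60 in RT against ST (adjusted p = 2.96e-04). Its signal was 27.2 to 63.7 in SV and 151 to 282 in RT, against 4.24 to 26.3 in ST, and with a floor of 32 the change in RT against ST was 2.77 (adjusted p = 1.64e-04). With this floor Cyp26a1 was not called in RT against ST. This list was drawn up after the data were seen, with half-sites that include those of the Rarb and Cyp26a1 windows.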
